A study of Mus musculus with 6 samples.

Results

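The facilitative sugar transporters of the Slc2a family were described in epididymal white adipose tissue (eWAT), the fat pad beside the epididymis. The family was taken as 9 genes (Slc2a1, Slc2a3, Slc2a4, Slc2a5, Slc2a6, Slc2a8, Slc2a10, Slc2a12 and Slc2a13), and every array row that the platform annotation assigns to 1 of them and to no other gene was kept. All 9 genes were found, in 10 rows, since Slc2a1 has a brighter and a dimmer row, out of 41345 rows in the table and 22180 genes with a row of their own. RNA came from 3 wild-type (WT) mice and 3 transgenic (Tg) mice carrying Blnc1 specifically in adipose tissue. Blnc1, a long noncoding RNA, has been studied mainly in thermogenic fat. No row carries the name Blnc1, so the transgene itself was not analysed here. Animals of both genotypes were C57BL/6 males of 8 months on a high-fat diet for 21 weeks, so obesity-promoting feeding was common to both groups, and no lean group was compared here. The promoter that drives the transgene is not given in the sources used here. Arrays are named WT 1 to WT 3 and Tg 1 to Tg 3 after the replicate numbers in the labels, which call the replicates biological.

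Slc2a proteins, known as GLUT transporters, let glucose, fructose and related molecules cross membranes down their gradient. In adipocytes the insulin-responsive transporter GLUT4, encoded by Slc2a4, waits in storage vesicles inside the cell and moves to the surface when insulin signals, while GLUT1, encoded by Slc2a1, carries basal uptake in most cell types. GLUT12 (Slc2a12) is another transporter that has been described as insulin-responsive, GLUT3 (Slc2a3) is the high-affinity form of neurons and of leukocytes, GLUT5 (Slc2a5) carries fructose, GLUT6 and GLUT8 (Slc2a6, Slc2a8) are mostly intracellular, GLUT10 (Slc2a10) is linked to dehydroascorbate and arterial wall integrity, and HMIT (Slc2a13) moves myo-inositol with protons. Fat tissue holds adipocytes, vessels, macrophages and other cells, and in such bulk RNA fewer cells of a type and less RNA per cell cannot be told apart.

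RefSeq promoters (GRCm38.p6) were at hand for 7 of the 9 genes, without Slc2a3 and Slc2a4. Of the 3 members whose groups stood apart, Slc2a12 (higher in Tg), Slc2a1 and Slc2a3 (both lower), the first 2 could therefore be shown. The 250 bases before the annotated start are shown for this pair on the gene's strand, which is the plus strand for both, from chr10:22644761-22645010 for Slc2a12 and from chr4:119108495-119108744 for Slc2a1. Capitals mark matches to the core of the hypoxia response element, searched as ACGTG and as GCGTG on both strands.
Slc2a12: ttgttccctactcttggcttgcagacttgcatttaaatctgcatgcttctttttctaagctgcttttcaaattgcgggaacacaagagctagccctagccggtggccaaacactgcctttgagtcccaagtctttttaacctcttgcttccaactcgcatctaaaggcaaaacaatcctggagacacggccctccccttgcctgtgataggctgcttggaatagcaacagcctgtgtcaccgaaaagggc
Slc2a1: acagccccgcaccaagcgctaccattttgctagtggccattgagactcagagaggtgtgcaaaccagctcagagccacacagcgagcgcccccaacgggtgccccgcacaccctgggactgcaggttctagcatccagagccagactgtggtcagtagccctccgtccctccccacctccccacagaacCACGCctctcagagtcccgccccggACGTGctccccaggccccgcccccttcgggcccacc
The Slc2a1 window held 1 match to ACGTG and 1 to GCGTG, read as CACGC on the opposite strand, and the Slc2a12 window held neither. GCGTG was found in 3 of the 7 windows, also 4 times in Slc2a6 and 1 time in Slc2a8, whose groups overlapped, and ACGTG in Slc2a1 alone. Among 32851 RefSeq promoters of the same length, 16.6% held ACGTG and 28.2% held GCGTG. The palindrome bound by EBF factors, partners of Blnc1, was searched on both strands as TCCC, any 2 bases and GGGA and was not in the windows of these 7 genes, against 0.779% of all promoters. The E-box CACGTG, which contains ACGTG, was in none of the 7 either, against 6.02% of all promoters. GC content was 66.4% in the Slc2a1 window and 48.8% in the Slc2a12 window, with a median of 52.4% over all promoters. A match is a description of letters and not a bound site.

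The values are the deposited log2 signals, in which 1 unit is a 2-fold difference. Tg was compared with WT in limma over all rows, with Benjamini-Hochberg adjustment across the 41345 rows, and a row was called at an adjusted p of 0.05 or below. No row of the table passed (0.0%), and the smallest adjusted p was 0.196. An unadjusted p under 0.05 was reached by 4263 rows (10.3%). As deposited, Tg was the higher group in 1831 of them (4.43%) and the lower in 2432 (5.88%), and after median centring of the arrays the split was 2892 to 1580. The 3 Tg and 3 WT values did not overlap in 16.7% of rows. The arrays differed in cell markers. Means of 12 adipocyte markers such as Adipoq and Plin1 lay between 9.51 and 9.90 in WT and between 9.94 and 10.34 in Tg, and all 12 genes were higher in Tg. Every array thus carried the defining markers of fat. Endothelial markers were also higher in Tg in 12 of 12 genes, and mast cell markers lower in 8 of 8, from 5.86 to 6.90 in WT and from 4.93 to 5.43 in Tg. Markers of the epididymis averaged 5.07 in Tg 2 and between 1.44 and 2.30 in the other arrays, and 8 of the 16 measured were highest in Tg 2. T and NK cell markers ranged from 3.72 to 5.80 in WT and from 3.68 to 4.51 in Tg, and smooth muscle markers from 6.16 to 7.65 and from 5.69 to 6.42.

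Among the sugar transporters, Slc2a12 was higher in Tg and the brighter Slc2a1 row and Slc2a3 were lower, each with groups that did not overlap, while the insulin-responsive Slc2a4 was spread too widely in Tg to separate. None of the 10 rows passed the threshold, with adjusted p from 0.285 to 0.975 in limma. The groups were apart in 3 of the 10 rows, 1 higher and 2 lower, beside 7.36% and 9.35% of all rows in those directions, and the same 3 rows had an unadjusted p under 0.05. In sign alone 8 rows were higher and 2 lower, where 47.2% of all rows were higher and 52.8% lower. The median difference over the 10 rows was 0.10, and over all rows -0.01. In 6 rows the difference was smaller than its standard error (SE). All 10 rows kept their sign under the 3 other scalings of the arrays that were tried.

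**Figure D1:**
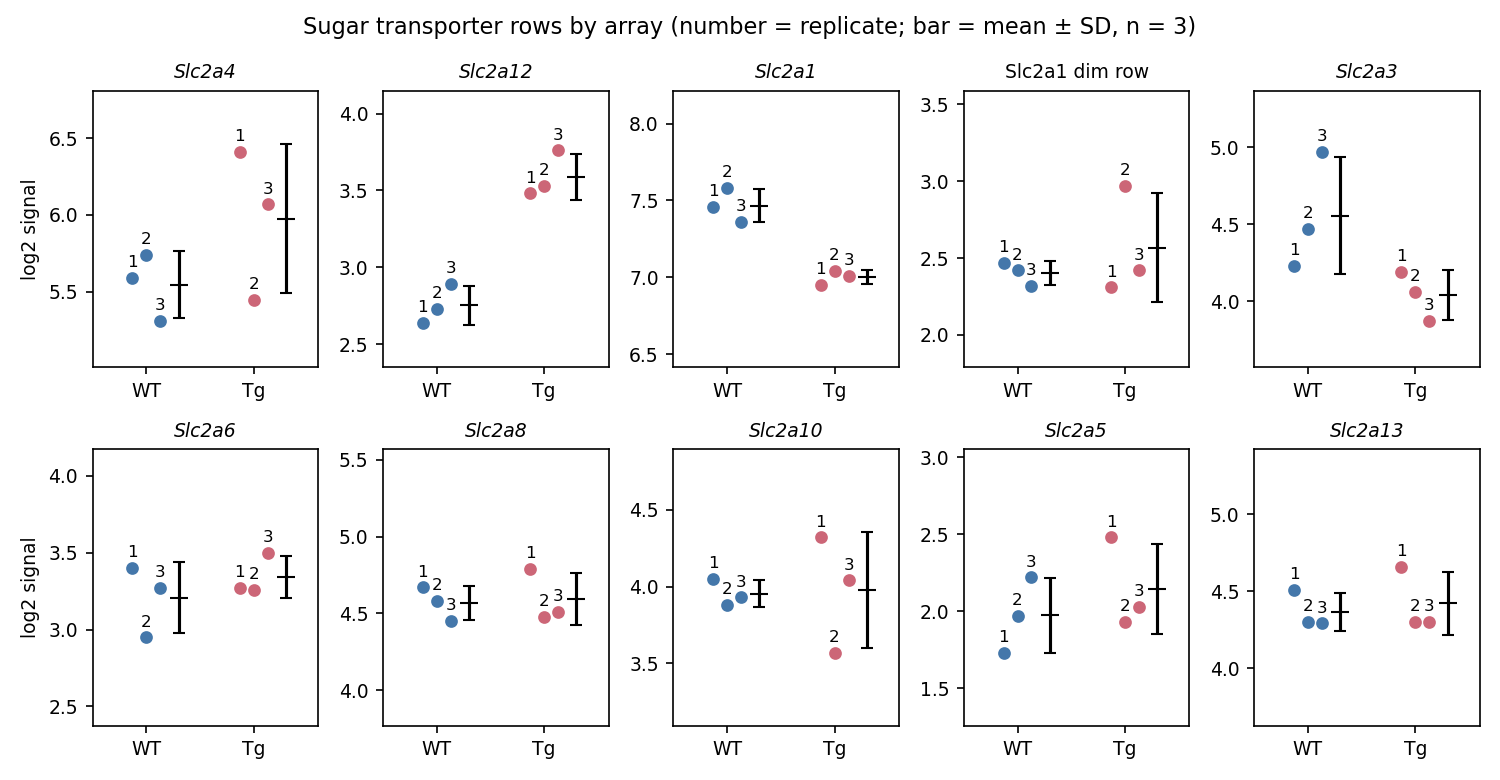
Deposited log2 signal of the 10 rows of the sugar transporter genes in WT and Tg eWAT; points are arrays numbered by replicate, horizontal ticks with bars are mean ± SD (n = 3), and each vertical axis spans the same number of log2 units. Slc2a12 is higher in every Tg array, Slc2a1 (brighter row) and Slc2a3 are lower, and the other 7 rows overlap.

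The WT arrays (1 to 3) gave Slc2a4 signals of 5.59, 5.74 and 5.31, and the Tg arrays gave 6.41, 5.45 and 6.07. Tg 1 and Tg 3 lay above every WT array, and Tg 2 lay below WT 1 and WT 2. The group means were 5.55 ± 0.22 in WT and 5.98 ± 0.49 in Tg (SD, n = 3). The difference of 0.43 ± 0.26 (SE), or 1.35-fold, had an adjusted p of 0.602 in limma and a 95% confidence interval from -0.18 to 1.05. Single arrays moved it: it was 0.70 without Tg 2 and 0.22 without Tg 1. Tg 2 was the array with the highest epididymis markers and the lowest adipocyte marker mean of the Tg arrays. With the epididymis marker mean as a covariate the difference was 0.59 ± 0.18 (adjusted p = 0.405 in limma). In the 3 arrays with the lowest epididymis markers (WT 1, Tg 1 and Tg 3, so 1 WT array only) it was 0.65 ± 0.23 (adjusted p = 0.900), and with the adipocyte marker mean as a covariate it turned to -0.27 ± 0.25.

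Slc2a12 signals were 2.64, 2.73 and 2.89 in the WT arrays, against 3.48, 3.53 and 3.76 in the Tg arrays. Every Tg array was above every WT array, with a gap wider than the spread within either group. The means were 2.75 ± 0.13 and 3.59 ± 0.15 (SD, n = 3), and the difference of 0.83 ± 0.12 (SE), or 1.78-fold, had an unadjusted p of 0.000362 and an adjusted p of 0.285. The 95% confidence interval ran from 0.54 to 1.13. The WT signals lay close to 2.67, the median of all row means, so the gene was dim in WT. Leaving out any 1 array gave differences between 0.75 and 0.90, and the array rich in epididymis transcripts, Tg 2, held the middle of the Tg values.

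Slc2a1 in its brighter row read 7.46, 7.58 and 7.36 in WT and 6.95, 7.04 and 7.01 in Tg. The Tg arrays lay close together and all below the lowest WT array. The means were 7.47 ± 0.11 and 7.00 ± 0.04 (SD, n = 3), a difference of -0.47 ± 0.10 (SE) with an unadjusted p of 0.00296, an adjusted p of 0.326 and a 95% confidence interval from -0.71 to -0.22. Without any 1 array the difference stayed between -0.52 and -0.41. The dimmer Slc2a1 row did not show it. That row read 2.47, 2.42 and 2.32 in WT and 2.31, 2.97 and 2.42 in Tg, with Tg 2 alone above the WT range, and differed by 0.16 ± 0.19. With both rows of Slc2a1 averaged, the gene differed by -0.15 ± 0.12 (adjusted p = 0.667). The rows disagree, and which part of the transcript each measures was not examined here. Macrophage markers, another group of genes lower in Tg, averaged from 9.67 to 9.87 in WT and from 9.43 to 9.47 in Tg, with all 12 lower, and their part in the Slc2a1 difference was not tested.

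Slc2a3 read 4.23, 4.47 and 4.97 in WT and 4.19, 4.06 and 3.87 in Tg. The groups were apart, though WT 1 and Tg 1 nearly met, and WT 3 stood highest. The difference was -0.52 ± 0.21 (SE; means 4.56 ± 0.38 and 4.04 ± 0.16, SD, n = 3), with an unadjusted p of 0.0422 and an adjusted p of 0.467. Without WT 3 it was -0.31, and in the 3 arrays with the lowest epididymis marker means (WT 1, Tg 1 and Tg 3, so 1 WT array only) it was -0.20. WT 3 was extreme in several marker lists. It had the highest means of T and NK cell (5.80), B and plasma cell (6.81), macrophage (9.87) and smooth muscle (7.65) markers. Its adipocyte (9.51) and endothelial (7.13) means were the lowest of the arrays. Not every leukocyte list peaked there. The neutrophil mean was highest in WT 1 (3.08, with 2.96 in WT 3). The mast cell mean was highest in WT 2 (6.90, with 6.57 in WT 3). Leukocytes are known to express Slc2a3, and the part of these cells in the difference was not tested.

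The remaining 5 genes overlapped between genotypes. Slc2a8 read 4.67, 4.58 and 4.45 in WT and 4.79, 4.48 and 4.51 in Tg, a difference of 0.02 ± 0.13 with a 95% confidence interval from -0.28 to 0.33. Slc2a13, the inositol transporter gene, read 4.51, 4.30 and 4.29 in WT and 4.66, 4.30 and 4.30 in Tg, and differed by 0.06 ± 0.14 (interval -0.28 to 0.39). In both genes Tg 1 was the highest array, and the other Tg values lay within the WT range. Slc2a10 read 4.05, 3.88 and 3.93 in WT but spread from 3.57 in Tg 2 to 4.32 in Tg 1, with Tg 3 at 4.04. Its difference was 0.03 ± 0.20 (interval -0.44 to 0.50), and the 2 most distant Tg arrays were the array richest in epididymis transcripts and the array with the highest adipocyte markers. The part of either tissue signal in this spread was not tested. Slc2a6 read 3.40, 2.95 and 3.27 in WT and 3.27, 3.26 and 3.50 in Tg, a difference of 0.14 ± 0.15, which was 0.01 without WT 2 and 0.06 without Tg 3. Slc2a5, the fructose transporter gene, was below the median of all rows at 1.73, 1.97 and 2.22 in WT and 2.48, 1.93 and 2.03 in Tg, and differed by 0.17 ± 0.19. Without Tg 1 that difference was 0.00376 and without WT 1 it was 0.05. Adjusted p for these 5 genes lay between 0.780 and 0.975 in limma. The intervals allow differences in either direction, so these arrays do not show that the levels were equal.

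**Figure D2:**
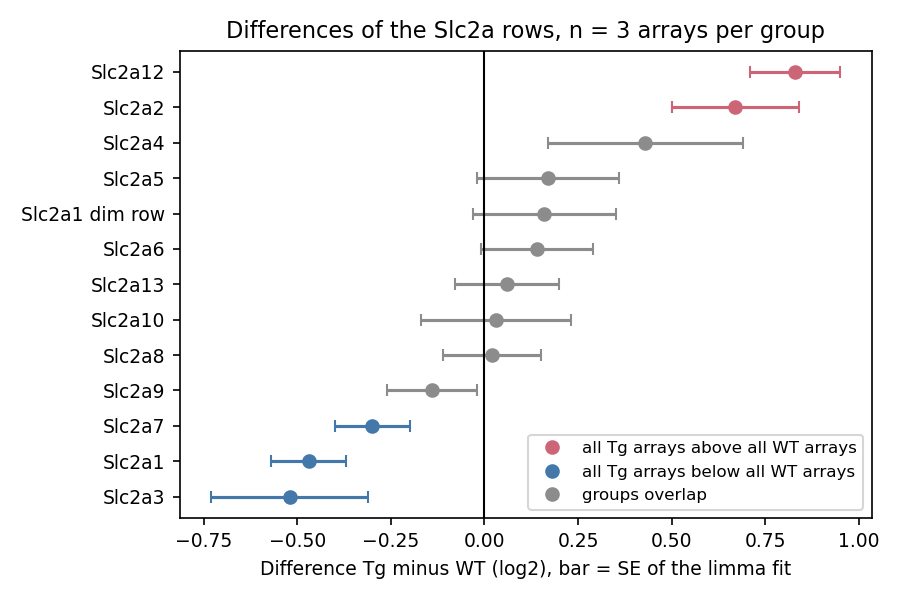
Difference in log2 signal (Tg minus WT) for the 10 rows of the 9 transporter genes and for Slc2a2, Slc2a7 and Slc2a9, with bars for the SE of the limma fit (n = 3 arrays per group). Colours mark rows whose groups do not overlap: Slc2a12 (0.83) and Slc2a2 (0.67) on the high side, and Slc2a7 (-0.30), Slc2a1 (-0.47) and Slc2a3 (-0.52) on the low side.

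The other 3 Slc2a genes with rows of their own completed the family. Slc2a2 encodes GLUT2, the low-affinity transporter of liver and pancreatic beta cells. It read 3.80, 4.34 and 3.88 in WT and 4.79, 4.52 and 4.73 in Tg, so all Tg arrays were higher, by 0.67 ± 0.17 (SE) with an unadjusted p of 0.00668 and an adjusted p of 0.346 in limma. Slc2a7 was dim, between 1.33 and 1.46 in WT and between 0.97 and 1.17 in Tg, with a difference of -0.30 ± 0.10. Slc2a9, which encodes a urate transporter, overlapped at -0.14 ± 0.12.

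The insulin-responsive and the basal transporter gene were also compared within each array, although Slc2a4 alone overlapped between genotypes. There, log2 Slc2a4 minus log2 Slc2a1 (brighter row) was -1.87, -1.84 and -2.05 in WT and -0.54, -1.58 and -0.94 in Tg. All 3 Tg arrays were above the WT arrays, and Tg 2 was the nearest to them. The difference in this balance was 0.90 (-1.92 ± 0.11 against -1.02 ± 0.53, SD, n = 3). It is a description without a test, and the 2 signals themselves are not comparable as amounts. The balance rests on the brighter Slc2a1 row, whose groups were already apart, so its separation is not a further result. The dimmer row differed in the other direction. How many pairs of genes stand apart on such a scale was not counted.

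Adipocyte marker genes were higher in Tg by 0.42 on average, so each transporter was also set against their mean in the same array. This subtraction lowers the difference of every gene by the same 0.42, so the shift is not particular to any transporter. Slc2a4 then read -4.31, -4.04 and -4.21 in WT and -3.93, -4.49 and -4.12 in Tg, and the group difference was 0.01 in place of 0.43. Relative to the endothelial markers the Slc2a4 difference was 0.08. These markers were also higher in Tg, by 0.35 on average, so this check cannot show that the small value is independent of the reference. Fibroblast and progenitor markers, which differed by 0.01 on average, were not used as a reference. Slc2a12 remained higher by 0.41 on this scale, but its groups overlapped, from -7.26 to -6.62 in WT and from -6.86 to -6.42 in Tg. Slc2a1 was lower relative to the markers by -0.89 and Slc2a3 by -0.94, both with groups apart. Slc2a8, Slc2a10 and Slc2a13, which overlapped as deposited, were lower relative to the markers by -0.40, -0.40 and -0.37 with groups apart, and Slc2a10 overlapped relative to endothelial markers. As deposited these 3 genes differed by 0.02, 0.03 and 0.06, so their values on this scale mostly carry the marker shift of 0.42. The share of all genes with groups apart on this scale was not counted, so the separations are not results about the transporters. With the adipocyte marker mean as a covariate in limma, Slc2a4 differed by -0.27 ± 0.25, Slc2a12 by 0.97 ± 0.20, Slc2a1 by -0.50 ± 0.17 and Slc2a3 by -0.17 ± 0.31, so that Slc2a3 was nearer to 0 by this fit and farther from it relative to the markers. The marker means themselves did not overlap between genotypes, so covariate and genotype are hard to separate in this fit. Its adjusted p were 0.926, 0.759, 0.809 and 0.966.

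**Figure D3:**
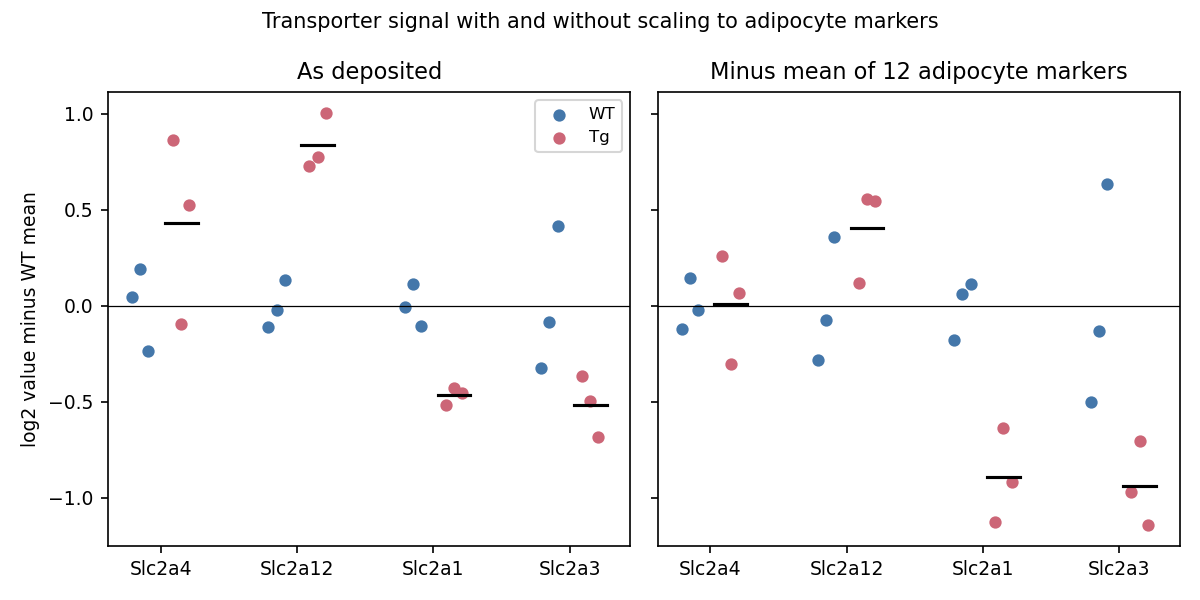
Log2 values of 4 transporter genes minus their WT mean, as deposited (left) and after the mean of 12 adipocyte markers of the same array was subtracted (right); points are arrays and black lines are Tg means. The Tg mean of Slc2a4 moves from 0.43 to 0.01, that of Slc2a12 from 0.83 to 0.41, that of Slc2a1 from -0.47 to -0.89 and that of Slc2a3 from -0.52 to -0.94. The subtraction moves every gene by the same 0.42.

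The profile over the 6 arrays was compared with that of 8480 further genes (8481 for Slc2a12) of mean signal above 5, by the root mean square difference (RMS) of the centred log2 values. The genes nearest to Slc2a4 were Apold1 (RMS 0.075) and Hspa12b (0.082), both known from endothelial cells, and Fitm2 (0.091), which acts in lipid droplet formation. The median candidate differed by 0.391. Nearest to the brighter Slc2a1 row were Prr13 (0.055), Pctp (0.059), a phosphatidylcholine transfer protein gene, and Txnrd1 (0.065), the thioredoxin reductase gene, against a median of 0.257. Nearest to Slc2a12 were Arhgap20 (0.156), the growth factor gene Fgf1 (0.156) and the aquaporin gene Aqp11 (0.158), against a median of 0.453. Since these genes were picked for their likeness over the same arrays, their differences between genotypes are not separate results.

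**Figure D4:**
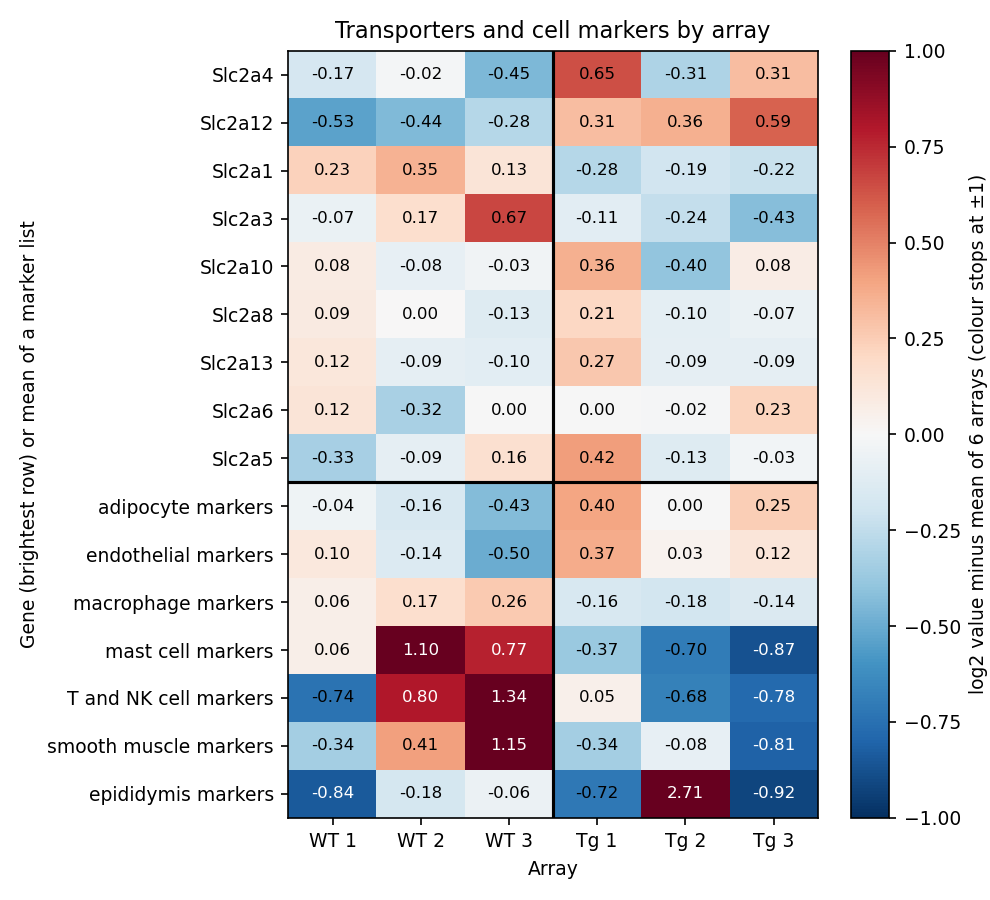
Log2 value of each array minus the mean of the 6 arrays, for the 9 transporter genes (brightest row, above the line) and for the means of 7 marker lists (below it); the colour scale stops at 1 in either direction. Slc2a12 and Slc2a1 change sign with the genotype, as do the macrophage and mast cell marker means, and Slc2a3 is highest in WT 3. Slc2a10 is lowest in Tg 2, where the epididymis markers are high, and Slc2a4 is low in Tg 2 but lowest in WT 3. A link between these markers and the transporters was not tested here.

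The genes around sugar transport were then counted in 9 lists, each gene by its brightest row. None passed the threshold over all rows. Over all 22180 genes 9.82% had an unadjusted p under 0.05 (5.31% higher, 4.51% lower), and the groups were apart in 8.85% with Tg higher and in 9.39% with Tg lower. List medians lay between -0.16 and 0.14, where the median over all genes was 0.0, and 5 of the 9 medians changed sign after median centring. Tg was higher in 50.0% and lower in 50.0% of all genes.

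GLUT4 vesicle traffic, the machinery that stores Slc2a4 protein and delivers it to the surface, was mixed. Of 29 genes 13 were higher and 16 lower, with a median of -0.02, and the groups were apart in 7 on the high side and 4 on the low side. Sort1, the sortilin gene of storage vesicle formation, read 9.50, 9.33 and 9.24 in WT and 9.85, 9.65 and 9.65 in Tg (0.36 ± 0.12). The membrane remodelling gene Ehd2 was higher by 0.43 ± 0.14 with groups apart. Trarg1, a fat-specific GLUT4 vesicle protein gene, differed by 0.46 ± 0.18 with overlapping groups, 10.11 to 10.60 in WT and 10.57 to 11.07 in Tg. On the low side stood Lrp1, a receptor found in these vesicles, at 9.92, 9.79 and 9.87 in WT and 9.52, 9.46 and 9.50 in Tg (-0.36 ± 0.09), and the small GTPase gene Rab14 (-0.30 ± 0.09). Tbc1d4, which encodes the Akt substrate AS160 that holds vesicles back, overlapped at 0.14 ± 0.11. Adjusted p for these 6 genes lay between 0.346 and 0.692 in limma.

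Of 14 genes of transporter turnover 6 were higher and 8 lower, with groups apart in 2 each way. Txnip, whose product promotes endocytosis of GLUT1 and GLUT4, read between 11.10 and 11.24 in WT and between 11.15 and 11.30 in Tg, a difference of 0.05 ± 0.10. Its relative Arrdc4 overlapped at -0.18 ± 0.12. Snx27, a sorting nexin gene that returns GLUT1 from endosomes to the surface, was lower by -0.25 ± 0.10 with groups apart. Tsc2 (0.28 ± 0.12) and the ubiquitin ligase gene Nedd4 (0.18 ± 0.10) were higher with groups apart, by 0.08 and 0.10 in the 3 arrays with the lowest epididymis markers.

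Transcription factors tied to Slc2a4 had a list median of 0.14, with 12 of 18 higher, and the median was 0.26 without WT 1 and 0.08 without WT 3. The groups were apart in 4 on the high side and 1 on the low side. Mlxipl, the gene of the glucose-sensing factor ChREBP, read 6.38, 6.20 and 6.09 in WT and 6.79, 6.75 and 6.96 in Tg (0.61 ± 0.12, adjusted p = 0.326 in limma). Ebf1, an adipogenic factor gene, was higher by 0.35 ± 0.10 with groups apart. Cebpb was lower by -0.19 ± 0.11 with groups that nearly met, and Mef2c differed by -0.07 ± 0.09. Adipocyte markers were higher in the same arrays, and their part in these values was not tested.

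Once inside the cell, glucose is trapped by hexokinases. Of 19 genes of hexose trapping and early use 8 were higher and 11 lower, with a median of -0.03, and the groups were apart in 0 on the high side and 3 on the low side. Hk2, the insulin-regulated hexokinase of fat and muscle, read 6.46, 6.37 and 6.04 in WT and 6.81, 6.37 and 6.68 in Tg (0.33 ± 0.17, overlapping). Gys1, the glycogen synthase gene, differed by 0.22 ± 0.15. Hk3, a hexokinase known from myeloid cells, read 6.69, 6.98 and 7.11 in WT and 6.22, 6.50 and 6.46 in Tg, lower in every Tg array by -0.53 ± 0.15, and by -0.35 in the 3 arrays with the lowest epididymis markers. Hk1, the widely expressed form, was lower by -0.27 ± 0.12 with groups apart. The difference between isoforms was not tested. Adjusted p of Hk2, Gys1, Hk3 and Hk1 ranged from 0.357 to 0.649 in limma. Macrophage markers were lower in Tg by -0.33 on average, and their part in the Hk3 and Hk1 values was not tested.

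Hypoxia genes were included because Slc2a1 is a known target of the hypoxia-inducible factors. Of 21 genes 13 were higher and 8 lower, with a median of 0.07 (0.20 without Tg 3) and groups apart in 4 each way. Hif1a itself differed by 0.02 ± 0.10. Epas1, the gene of HIF-2alpha, was higher by 0.58 ± 0.18 with groups apart, and by 0.19 in the 3 arrays with the lowest epididymis markers, and Bnip3 was higher by 0.48 ± 0.14. The lactate exporter gene Slc16a3 was lower by -0.48 ± 0.14 and the collagen prolyl hydroxylase gene P4ha1 by -0.21 ± 0.09, both with groups apart. Members of this list lay on both sides, and Slc16a3 differed by -0.25 in the 3 arrays with the lowest epididymis markers.

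Among 12 sodium-coupled and other sugar transporters 6 were higher and 6 lower, and 6 were dimmer than the median row. Slc45a3 read 4.44, 4.42 and 4.23 in WT and 4.06, 4.04 and 3.89 in Tg (-0.37 ± 0.11, groups apart), and Slc37a2, a sugar phosphate exchanger gene of macrophages, was lower by -0.24 ± 0.10 with groups apart. Slc5a9 (0.30 ± 0.13, groups apart) and Slc5a2 (0.27 ± 0.16, overlapping) were higher at dim signals.

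**Figure D5:**
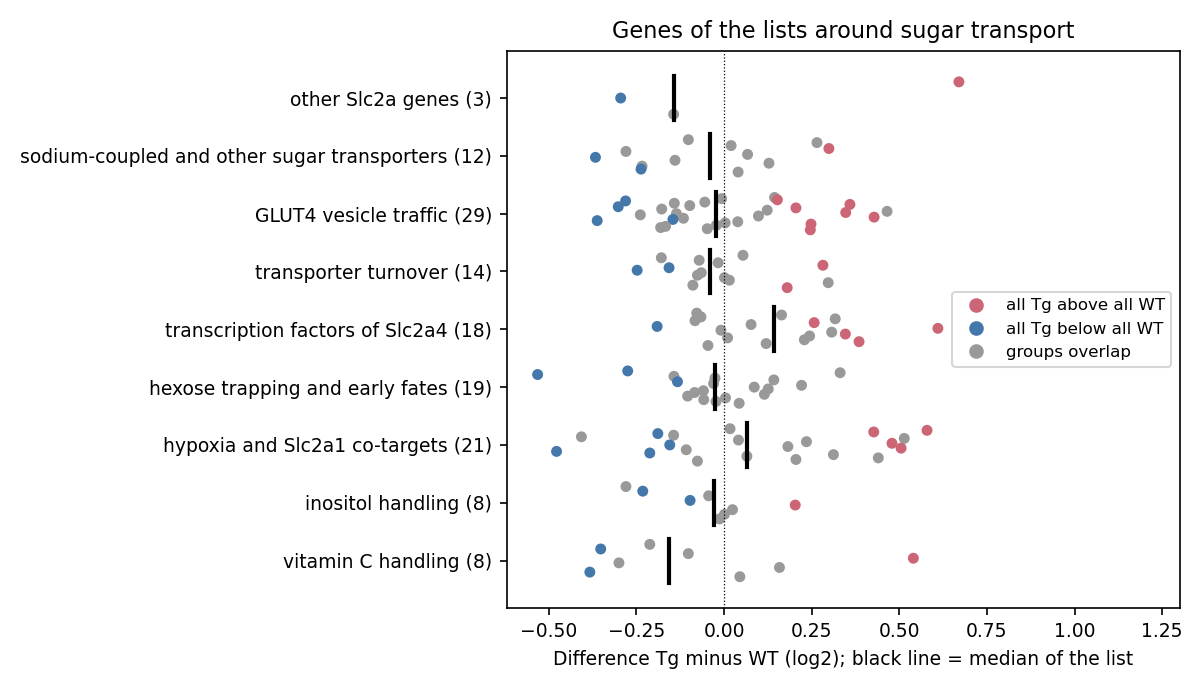
Difference in log2 signal (Tg minus WT) of every measured gene in the 9 lists around sugar transport, with the number of genes in brackets and the list median as a black line. Red and blue points are genes whose groups do not overlap; each list has genes on both sides of 0, and the medians lie between -0.16 and 0.14.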

How the data were processed

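Biotin-labelled cDNA from total RNA of eWAT was hybridised to 6 Affymetrix whole-transcript arrays, per the labels' protocols. Signals were deposited by the authors as log2 values; RMA and limma are named without roles, versions or settings, per the submitters' processing notes, and the genome build is not given in the sources used here. RMA is known to compress differences between low signals. Array medians lay between 2.64 and 2.75. Detection calls were not used here. With 3 arrays a group, precision is limited by array number.

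Rows were named through the platform annotation, which gave 1 gene for 23521 rows, several for 1814 and none for 16010. Tg and WT were compared in R 4.3.3 by lmFit and eBayes of limma 3.58.1 (2-sided, no filter, no covariate) over all rows. An exact permutation of 3 against 3 arrays cannot give p below 0.1 and was not used. On data simulated for this comparison over 41345 rows, 63% of rows changed 2-fold and 93% of rows changed 4-fold were recovered, with 11 false calls. There, 100 rows were changed per fold and the noise was normal and independent between rows. Shifts shared by many rows, such as those of cell markers, were not simulated, so these shares are not the power of the real arrays.

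The members, the 9 pathway lists and the 15 marker lists were chosen with earlier results of these data known. Lists were matched by symbol or by an unambiguous synonym. From each list, the pair of genes with the smallest p in each direction was named, with Txnip, Tbc1d4, Hk2, Trarg1, Lnpep, Sort1, Slc5a3 and Hif1a, of which Lnpep and Slc5a3 had no row of their own. Cell type lists are reported as counts and ranges. Neighbours in profile were the 3 genes with the smallest RMS among named genes of mean above 5, without uncharacterised models. Alternatives left out arrays, added the replicate number or a marker mean to the fit, rescaled the arrays, filtered rows and changed the variance model.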

Additional observations from a re-analysis of the deposited data

How the results depend on the processing

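No row of the table and none of the 10 transporter rows passed an adjusted p of 0.05 in any of the alternatives run, nor at 0.10 in the main comparison. Slc2a12 stayed between 0.75 and 0.97 over 19 alternatives (adjusted p 0.193 to 0.900), Slc2a3 stayed between -0.68 and -0.17 over 19, and the brighter Slc2a1 row kept its sign wherever it was fitted by itself. The balance of Slc2a4 to Slc2a1 lay between 0.66 and 1.18 when arrays were left out. With the adipocyte marker mean as a covariate 4 genes changed sign, Slc2a4 to -0.27, Slc2a8 to -0.25, Slc2a10 to -0.42 and Slc2a13 to -0.22. In the 3 arrays that earlier results describe as free of tract transcripts (WT 1, Tg 1 and Tg 3) the dimmer Slc2a1 row was -0.11, Slc2a6 -0.01, Slc2a8 -0.02 and Slc2a13 -0.03. Leaving out 1 array gave ranges of -0.04 to 0.29 for the dimmer Slc2a1 row (below 0 without Tg 2), -0.07 to 0.08 for Slc2a8 (below 0 without WT 3 or Tg 1), -0.15 to 0.23 for Slc2a10 (-0.00262 without Tg 3, -0.01 without WT 2 and -0.15 without Tg 1) and -0.06 to 0.13 for Slc2a13 (below 0 without Tg 1). Slc2a6 ranged from 0.01 to 0.23 and Slc2a5 from 0.00376 to 0.29, and Slc2a5 was 0.52 in the 3 arrays. The cause was not tested. Signs of 5 list medians turned with median centring. Same-numbered WT and Tg arrays did not deviate together (r of -0.038, 0.007 and -0.043 across rows, which are not independent replicates). Different-numbered pairs gave r from -0.033 to 0.071. Values near 0 over all rows cannot exclude a pairing or a shared batch, and the numbers were used here as names of arrays only. The fit with the replicate block called 0 rows, with Slc2a12 at an adjusted p of 0.425 and Slc2a1 at 0.425.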

Other observations

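Vitamin C handling, examined because GLUT10 has been linked to dehydroascorbate, had a list median of -0.16 over 8 genes (3 higher, 5 lower). The median was -0.07 without WT 3, -0.11 without WT 2 and -0.09 with median centring. Slc23a2, the sodium-dependent ascorbate transporter gene, read 7.05, 7.15 and 7.02 in WT and 6.65, 6.79 and 6.72 in Tg, lower in every Tg array by -0.35 ± 0.10 (adjusted p = 0.357 in limma). Txnrd1 read 8.88, 9.12 and 8.84 in WT and 8.46, 8.66 and 8.58 in Tg (-0.38 ± 0.12). Gstk1, a mitochondrial and peroxisomal glutathione transferase gene, went the other way, from 7.07, 7.00 and 6.66 to 7.66, 7.22 and 7.47 (0.54 ± 0.16), and Gsto1 overlapped at 0.16 ± 0.11.

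Inositol handling, the surroundings of Slc2a13, had a median of -0.03 over 8 genes, with 3 higher and 5 lower. The inositol monophosphatase gene Impa1 was lower by -0.23 ± 0.10 and the inositol phosphate kinase gene Itpk1 higher by 0.20 ± 0.09, both with groups apart, while Ippk differed by 0.02 ± 0.11 and the dim Slc5a11 by -0.28 ± 0.22 with overlap. None passed the threshold over all rows.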
